A study of Mus musculus with 24 samples.

Results

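Integrins are cell surface receptors made of an alpha and a beta subunit, and 10 genes for such subunits were followed in mouse dendritic cells grown from bone marrow: Itgam, Itgax, Itgal, Itgb2, Itgae, Itgb7, Itga4, Itgav, Itgb5 and Itgb8. They were taken by symbol, each matched to a single Ensembl gene identifier, and are 10 of the 55414 gene lines in the deposited count tables. The messenger RNA libraries number 24, in 8 groups of 3. All cultures received GM-CSF at 20 ng/ml, a cytokine that drives bone marrow cells towards dendritic cells and macrophages. FL cultures also received FLT3L, the FLT3 ligand on which conventional dendritic cells depend, at 200 ng/ml. They were sampled on day 16 (t0) and after 24 h more in the solvent DMSO or in 0.05 µM AZD5582. GM cultures had GM-CSF alone and were sampled on day 8 (t0) and after 24 h more in DMSO or in AZD5582 at 0.1, 0.5 or 1 µM. AZD5582 is a small molecule that mimics SMAC and blocks IAP proteins, which restrain cell death and non-canonical NF-kB signalling, and the series examines dendritic cells exposed to it. Bone marrow came from wild-type or Cas9-EGFP C57BL/6JRj mice, and the labels do not say which mice each library came from. GM libraries share a culture number and differ in a sub-number (1, 2 and 3), while FL libraries come from cultures 91, 94 and 95. Whether they came from separate animals is not given, so p-values measure the spread between these samples.

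The leukocyte integrins share the beta2 subunit, whose alpha partners include alphaM, alphaX and alphaL. They serve adhesion, uptake of complement-coated particles and contact with T cells. The beta7 subunit pairs with alphaE to bind E-cadherin on epithelium, or with alpha4 to bind the gut vessel addressin MAdCAM-1, and alpha4 also pairs with beta1 to bind VCAM-1. The alphav subunit pairs with several beta chains, among them beta5, used in taking up dying cells, and beta8, with which it frees active TGF-beta from its latent complex, a role described for mouse dendritic cells.

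Promoter sequence is shown for 4 members that differed between AZD5582 and DMSO in GM cultures: Itgam and Itgb7, with the largest falls at 0.5 and 1 µM, and Itgav and Itgb8, the subunits of the TGF-beta activating integrin. Each is 300 bases of the RefSeq table for GRCm38.p6, on the gene's own strand from 250 bases before the transcript start to 50 after it. Capitals mark the letters GAGGAAG, a core bound by the myeloid factor PU.1, on either strand. The windows are chr7:128062390-128062689 (plus strand) for Itgam, chr15:102231886-102232185 (minus strand) for Itgb7, chr2:83724147-83724446 (plus strand) for Itgav and chr12:119238227-119238526 (minus strand) for Itgb8.
Itgam: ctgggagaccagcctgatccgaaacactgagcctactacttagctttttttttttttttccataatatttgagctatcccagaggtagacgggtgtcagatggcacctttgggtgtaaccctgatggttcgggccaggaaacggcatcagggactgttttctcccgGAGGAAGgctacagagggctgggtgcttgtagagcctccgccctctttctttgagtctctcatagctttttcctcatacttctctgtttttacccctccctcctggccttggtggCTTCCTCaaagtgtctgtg
Itgb7: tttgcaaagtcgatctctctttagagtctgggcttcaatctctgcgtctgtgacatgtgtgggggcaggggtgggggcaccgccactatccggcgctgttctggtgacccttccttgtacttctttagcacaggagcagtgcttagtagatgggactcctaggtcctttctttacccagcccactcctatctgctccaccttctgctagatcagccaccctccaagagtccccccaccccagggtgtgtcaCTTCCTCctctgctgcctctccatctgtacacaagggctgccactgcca
Itgav: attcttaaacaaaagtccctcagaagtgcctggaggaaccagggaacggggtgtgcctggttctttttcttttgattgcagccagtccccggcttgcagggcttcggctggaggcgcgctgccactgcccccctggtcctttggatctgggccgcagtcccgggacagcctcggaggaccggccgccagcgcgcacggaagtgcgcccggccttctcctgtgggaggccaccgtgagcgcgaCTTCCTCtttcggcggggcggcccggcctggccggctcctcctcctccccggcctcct
Itgb8: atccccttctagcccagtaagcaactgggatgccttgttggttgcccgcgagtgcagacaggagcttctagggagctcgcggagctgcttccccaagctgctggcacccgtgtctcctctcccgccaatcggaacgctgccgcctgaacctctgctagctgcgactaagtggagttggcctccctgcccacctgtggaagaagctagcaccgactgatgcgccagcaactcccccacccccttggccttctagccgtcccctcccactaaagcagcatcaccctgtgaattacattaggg
The table held promoters for 7 of the 10 members (Itgam, Itgax, Itgb7, Itga4, Itgav, Itgb5 and Itgb8). GAGGAAG began 84 bases before the start of Itgam on the gene's strand, and on the opposite strand 31 bases after the start of Itgam, 1 base after that of Itgb7 and 8 bases before that of Itgav. It was not found in the windows of Itgax, Itga4, Itgb5 and Itgb8, and 13.6% of all 32851 promoters of the table hold it on either strand. The letters TGTGGTT, bound by RUNX factors, were in none of the 7 windows, against 5.27% of all promoters, and nor was the NF-kB consensus, against 4.51%. The searched motifs do not overlap with each other, and a match is a description of sequence, not of binding.

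Libraries held 27012555 to 85820558 counts on genes. Levels below are counts-per-million (CPM) on library sizes scaled by the trimmed mean of M-values, and a gene was called where edgeR's quasi-likelihood test gave an adjusted p under 0.05 over all genes tested. Against the labelled cell type, monocyte and macrophage markers (9 genes, among them Csf1r and Adgre1) summed to 777 to 978 CPM in FL libraries at t0 and to 19060 to 24370 CPM in GM libraries at t0. All 10 markers of type 1 conventional dendritic cells (cDC1) were at a mean of at least 1 CPM in FL cultures at t0, while 5 of 10 were under 1 CPM in GM cultures at t0. Neutrophil markers summed to 1220 to 4126 CPM in FL libraries at t0, against 277 to 334 CPM in GM libraries at t0. These are bulk cultures, so fewer cells of a type and less RNA per cell cannot be told apart. Exons of Itga4, Itgam and Itgav overlap those of Cerkl (0.174 to 1.60 CPM), Gm49368 (0.0974 to 10.2 CPM) and Gm13684 (0 CPM), in that order. Gm49368 lies on the same strand as Itgam, the others on the opposite strand. Reads in shared exons may be missing from the members, and these levels cannot show how many.

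Itgb2, the beta2 subunit common to the leukocyte integrins, had the highest mean per length of exon in every group except FL cultures in AZD5582. There Itga4 had the higher mean and the libraries of the 2 genes overlapped. In FL cultures at t0 and in DMSO the libraries of Itgb2 overlapped with those of Itgb7, so Itgb2 led by its mean only. In GM cultures the levels of Itgb2 were 1481, 1318 and 1198 CPM after 24 h in DMSO and 1482, 1508 and 1419 CPM at t0. They were 722, 849.9 and 846 CPM at 0.1 µM AZD5582, 449.8, 471 and 402 CPM at 0.5 µM and 352, 391 and 375 CPM at 1 µM. Every dose lay below every DMSO library, and no library at 1 µM reached those at 0.5 µM. FL cultures 91, 94 and 95 held 543, 388 and 435 CPM at t0, 99.4, 250.1 and 256 CPM in DMSO and 48.2, 149.5 and 97.0 CPM in 0.05 µM AZD5582, with culture 91 the highest at t0 and the lowest in both other groups.

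Itgam encodes alphaM (CD11b), which with beta2 forms the complement receptor Mac-1. GM cultures held 507, 469 and 420.3 CPM in DMSO and 546, 437 and 511 CPM at t0, ranges that overlap. AZD5582 groups held 118, 164 and 121 CPM at 0.1 µM, 61.9, 63.2 and 42.5 CPM at 0.5 µM and 45.8, 46.9 and 38.9 CPM at 1 µM, all far below DMSO, with 0.5 and 1 µM overlapping each other. In FL cultures 91, 94 and 95 the levels were 85.8, 157 and 129 CPM at t0, 43.0, 353.6 and 186 CPM in DMSO and 12.2, 167 and 67.9 CPM in AZD5582. Culture 91 was lowest and culture 94 highest in all 3 groups. Neutrophil markers, whose cells also carry alphaM, summed to 4126 CPM at t0, 9632 CPM in DMSO and 3511 CPM in AZD5582 in culture 94, the highest of the 3 cultures each time, and their part in the level of Itgam was not tested.

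Itgax encodes alphaX (CD11c), the integrin chain by which mouse dendritic cells are most often recognised. It had 443, 443 and 336 CPM in GM cultures after 24 h in DMSO, against 1161, 1133 and 1148 CPM at t0, with no overlap. The AZD5582 libraries had 297, 403 and 387 CPM at 0.1 µM, 1 library below the DMSO range and 2 within it, then 186, 194 and 162 CPM at 0.5 µM and 162, 168 and 150.4 CPM at 1 µM. In FL cultures 91, 94 and 95 there were 451, 308 and 369 CPM at t0, 35.6, 119 and 152 CPM in DMSO and 23.7, 37.5 and 40.1 CPM in AZD5582. Each FL culture was lower in DMSO than at t0 and lower in AZD5582 than in DMSO. AZD5582 and DMSO libraries overlapped only through culture 91, whose DMSO library was itself low.

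Itgal encodes alphaL (CD11a), the alpha chain of the ICAM-binding integrin LFA-1. GM cultures held 209.5, 173 and 147 CPM in DMSO and 158, 189 and 165 CPM at t0, again overlapping. With AZD5582 they held 39.4, 53.7 and 58.9 CPM at 0.1 µM, 18.6, 24.3 and 24.4 CPM at 0.5 µM and 15.6, 22.2 and 22.2 CPM at 1 µM. The FL cultures, 91, 94 and 95 in turn, held 246, 119 and 146 CPM at t0, 21.3, 58.5 and 63.8 CPM in DMSO and 7.37, 29.4 and 18.5 CPM in AZD5582. DMSO libraries of FL cultures lay below every t0 library, and each FL culture was lower in AZD5582 than in DMSO.

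Itgae encodes alphaE (CD103), carried in the mouse by cDC1 and by dendritic cells of the gut and skin. In GM cultures it stood at 1.18, 1.47 and 0.320 CPM after 24 h in DMSO and at 26.8, 47.7 and 40.0 CPM at t0, and only 14 to 117 reads per library lay behind the DMSO values. AZD5582 libraries held 0.140, 0.420 and 0.166 CPM at 0.1 µM, 0.451, 0.242 and 0.239 CPM at 0.5 µM and 0.0746, 0.309 and 0.423 CPM at 1 µM, from 3 to 22 reads each, and overlapped with DMSO replicate 3. FL cultures 91, 94 and 95 stood far higher, at 910.3, 286 and 333 CPM at t0, 16.1, 86.5 and 148 CPM in DMSO and 3.03, 23.6 and 17.1 CPM in AZD5582. Every FL culture was lower in DMSO than at t0 and lower in AZD5582 than in DMSO, with the largest falls from t0 in culture 91.

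Itgb7 encodes beta7, the partner of both alphaE and alpha4. GM cultures held 153, 152 and 110.5 CPM in DMSO and 192, 180.2 and 193 CPM at t0, with every DMSO library below every t0 library. With AZD5582 the levels were 6.31, 9.93 and 9.82 CPM at 0.1 µM, 2.73, 5.21 and 5.15 CPM at 0.5 µM and 4.03, 5.34 and 4.31 CPM at 1 µM, none of them near the DMSO libraries. In FL cultures 91, 94 and 95 it had 504, 296 and 335 CPM at t0, 108, 184 and 231 CPM in DMSO and 15.1, 86.8 and 51.4 CPM in AZD5582, and the 3 groups do not overlap.

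Itga4 encodes alpha4 (CD49d), a chain of the VCAM-binding integrin VLA-4 and of the gut homing integrin alpha4beta7. It had 379.5, 401 and 515 CPM in GM cultures in DMSO, against 75.4, 65.2 and 68.2 CPM at t0. AZD5582 libraries had 455, 461 and 473 CPM at 0.1 µM, 573, 558 and 590 CPM at 0.5 µM and 476, 583 and 559 CPM at 1 µM, overlapping with DMSO at 0.1 and 1 µM. Cultures 91, 94 and 95 with FLT3L had 176, 162 and 147 CPM at t0, 1274, 308 and 441 CPM in DMSO and 1006, 399.7 and 587 CPM in AZD5582. Culture 91 stood apart after 24 h, with or without AZD5582.

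Itgav encodes alphav (CD51). In GM cultures DMSO libraries held 39.2, 40.7 and 51.5 CPM and t0 libraries 42.0, 46.8 and 43.9 CPM. AZD5582 libraries held 111, 124 and 96.0 CPM at 0.1 µM, 133, 145 and 125 CPM at 0.5 µM and 106, 141 and 115 CPM at 1 µM, all above every DMSO library. The FL cultures, again 91, 94 and 95, held 54.8, 35.01 and 35.2 CPM at t0, 35.8, 28.3 and 33.3 CPM in DMSO and 138, 70.9 and 119 CPM in AZD5582, and here too the AZD5582 libraries lay above all others. At t0 and in DMSO all libraries of both culture types lay between 28.3 and 54.8 CPM. In DMSO every FL library lay below every GM library.

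Itgb5 encodes beta5, which with alphav binds vitronectin. GM cultures held 228, 176 and 236 CPM in DMSO and 134, 114 and 105 CPM at t0. AZD5582 libraries held 85.8, 96.3 and 122 CPM at 0.1 µM, 59.6, 53.0 and 63.7 CPM at 0.5 µM and 53.4, 45.4 and 57.8 CPM at 1 µM, below every DMSO library. FL cultures 91, 94 and 95 were far lower, at 5.24, 5.06 and 5.13 CPM at t0, 17, 8.98 and 15.5 CPM in DMSO and 11.5, 9.28 and 9.12 CPM in AZD5582.

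Itgb8 encodes beta8, the chain that gives the alphav integrin its TGF-beta activating property. It was nearly silent in GM cultures at t0: DMSO libraries held 5.34, 6.73 and 11.9 CPM and t0 libraries 0.105, 0.115 and 0 CPM, the last 3 from 14 reads in all. AZD5582 libraries held 53.6, 39.1 and 44.0 CPM at 0.1 µM, 80.3, 51.2 and 77.7 CPM at 0.5 µM and 49.9, 60.4 and 78.2 CPM at 1 µM, above every DMSO library. In FL cultures 91, 94 and 95 the gene had 1.41, 1.61 and 1.39 CPM at t0, 35.01, 4.18 and 5.84 CPM in DMSO and 52.0, 14.1 and 28.4 CPM in AZD5582. Culture 91 was the highest after 24 h in both groups, and its DMSO library lay within the AZD5582 range.

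**Figure D1:**
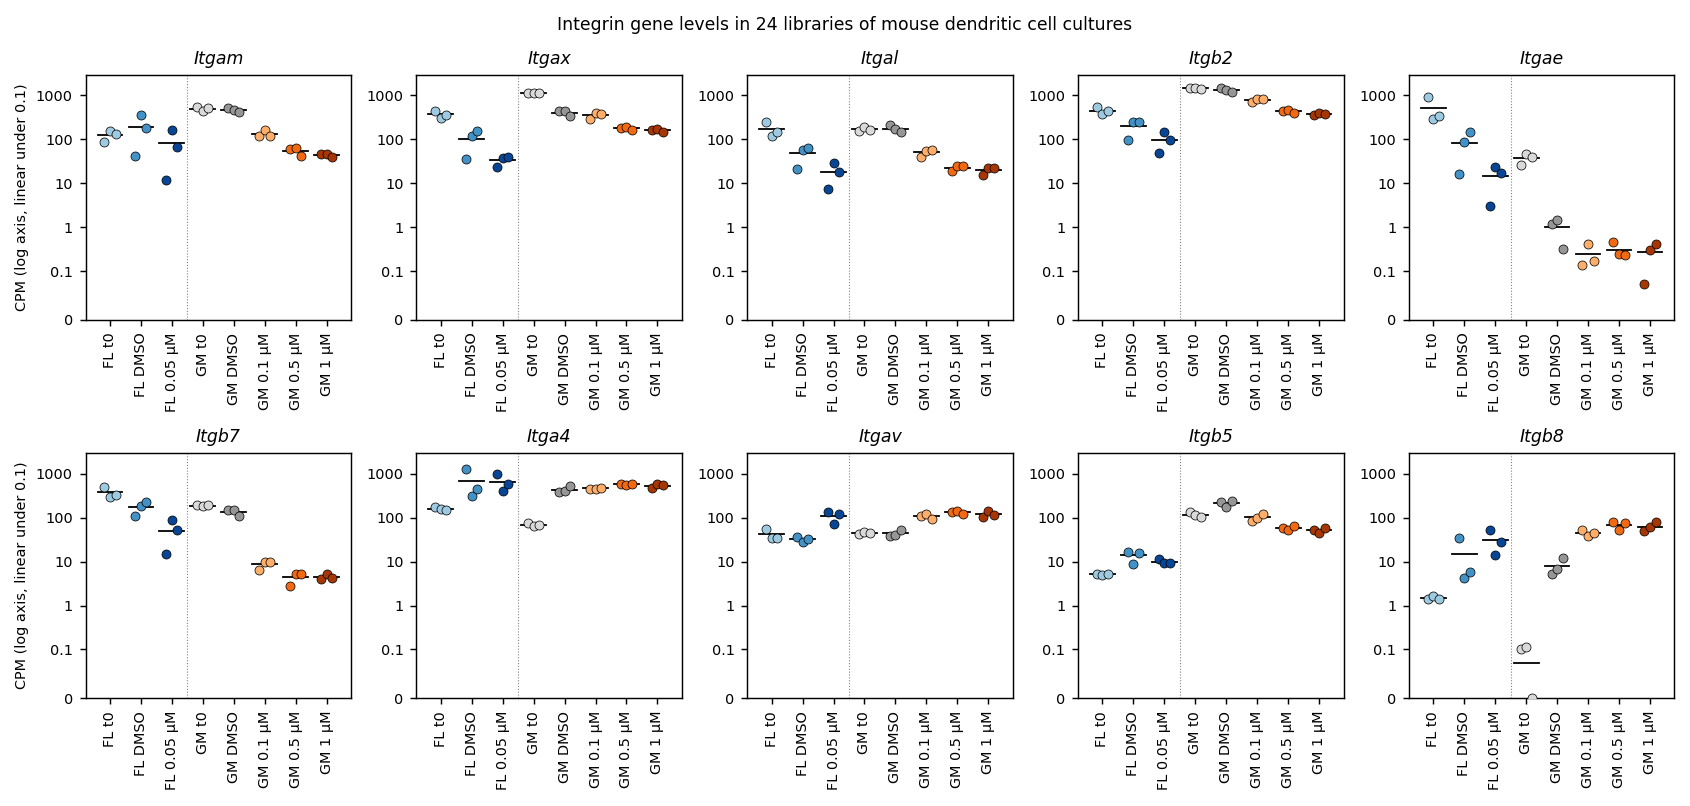
Level of each integrin gene (CPM, log axis that is linear under 0.1) in the 8 groups, FL cultures left and GM cultures right of the dotted line; points are libraries and bars the mean of 3. Itgb8 and Itgav stand above DMSO in every GM library with AZD5582, while Itgb7, Itgam and Itgal stand below it, and Itgae is under 2 CPM in all GM libraries after 24 h.

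After 24 h in DMSO, GM cultures had more alpha4, beta5 and beta8 messenger RNA and less alphaX than at t0, while the other beta2 integrin genes among the members passed no threshold. This comparison differs in both time and solvent. Mature dendritic cell markers moved with it, 6 of 6 higher with sums of 5873 to 7200 CPM in DMSO against 748 to 868 CPM at t0. Monocyte and macrophage markers summed to 27760 to 33720 CPM in DMSO against 19060 to 24370 CPM at t0 (5 of 9 called higher, 2 lower). Of 9 cDC1 markers tested, 4 were higher and 2 lower, while 4 of 7 cDC2 markers and 3 of 3 eosinophil markers fell. The part of these shifts was not tested. Loss of Itgae over time was already known when the members were listed, so its log2 difference of -5.20 ± 0.42 (SE), a 36.8-fold lower level, is a description without a test. Of the other 9 members, 3 rose, 1 fell and 5 were not called, where 47.5% of all 16152 genes were called (27.2% higher, 20.3% lower). Itga4 rose 6.16-fold (log2 2.62 ± 0.12, adjusted p = 5.27e-12) and Itgb5 rose 1.80-fold (log2 0.85 ± 0.14, adjusted p = 6.88e-05). Itgb8 rose by 6.68 ± 0.52 on the log2 scale (adjusted p = 6.80e-08), a size that rests on the 14 reads at t0. Itgax fell 2.84-fold (log2 -1.50 ± 0.13, adjusted p = 2.16e-08). Differences of Itgam (-0.11 ± 0.15), Itgal (0.04 ± 0.16), Itgb2 (-0.15 ± 0.10), Itgb7 (-0.45 ± 0.18, adjusted p = 0.0544) and Itgav (-0.03 ± 0.12) missed the threshold. Scaled by library totals alone, which moved the median gene by -0.17 and the share of calls that were higher to 41.3% against 57.3%, Itgb2 (-0.32) and Itgb7 (-0.62) were also called lower. Itgb7 was called lower as well by DESeq2, without the filter on low counts, and with the 2 groups fitted alone.

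AZD5582 divided the members in GM cultures. At 0.5 and 1 µM the 3 alpha chains of the beta2 family followed here, beta2 itself, alphaE, beta7 and beta5 fell, while alpha4, alphav and beta8 rose. Relative to DMSO, 3 members rose and 7 fell at 1 µM, where 55.1% of 16152 genes were called (26.9% higher, 28.2% lower). The counts were the same at 0.5 µM (53.5% of genes called, 25.8% higher and 27.7% lower), and at 0.1 µM 2 rose and 6 fell (40.3% of genes called, 19.9% higher and 20.3% lower). All these counts include Itgae, whose DMSO libraries also enter the loss known when the members were listed. The median log2 difference over the 10 members was -1.76 at 1 µM, beside -0.01 over all genes tested.

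The largest fall at 1 µM was that of Itgb7, 28.2-fold (log2 -4.82 ± 0.23, adjusted p = 4.16e-11), of which -3.92 ± 0.21 was present at 0.1 µM. Itgam fell 9.83-fold (-3.30 ± 0.17) and Itgal 8.21-fold (-3.04 ± 0.17) at 1 µM, while their common partner Itgb2 fell 3.32-fold (-1.73 ± 0.10). Itgax differed from DMSO by -0.10 ± 0.12 at 0.1 µM (adjusted p = 0.560), with a 95% interval of -0.34 to 0.14, and fell by 1.24 ± 0.13 at 1 µM (adjusted p = 1.53e-07). Itgb5 fell 3.80-fold at 1 µM (-1.93 ± 0.14). The fall of Itgae (-1.79 ± 0.54, adjusted p = 0.0109) rests on few reads: it was not called at 0.5 or 1 µM without DMSO replicate 2 (adjusted p = 0.0522 and 0.0538), nor at 1 µM without 1 µM replicate 1 (adjusted p = 0.0622). With all 24 libraries in one fit Itgae was not called at 0.1, 0.5 or 1 µM (adjusted p = 0.121, 0.126 and 0.122), nor was Itgb2 at 0.1 µM (-0.72, adjusted p = 0.0948).

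Among the members that rose, Itgb8 was 8.56-fold higher at 1 µM than in DMSO (log2 3.10 ± 0.30, adjusted p = 4.54e-07) and 6.06-fold higher at 0.1 µM. Itgav was 2.97-fold higher at 1 µM (1.57 ± 0.13, adjusted p = 7.48e-09) and 2.65-fold higher at 0.1 µM. Itga4 rose less, by 0.50 ± 0.11 at 0.5 µM (adjusted p = 7.12e-04) and 0.43 ± 0.11 at 1 µM (adjusted p = 0.00261), and under scaling by library totals alone it was no longer called at 1 µM (0.21, adjusted p = 0.162). With all 24 libraries in one fit, Itga4 was called neither at 0.5 µM (0.41, adjusted p = 0.387) nor at 1 µM (0.32, adjusted p = 0.501). At 0.1 µM its difference of 0.17 ± 0.11 passed the threshold only without DMSO replicate 3 (0.32, adjusted p = 0.0146). Scaling by library totals moved the median gene by -0.23 at 1 µM and the share of calls that were higher to 32%, against 48.9%, and no member changed direction.

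Between doses, 6 members were lower at 0.5 µM than at 0.1 µM and none was called higher in the 15-library GM fit (11.4% of genes called, 2.98% higher and 8.47% lower). They were Itgam (-1.24 ± 0.16), Itgal (-1.15 ± 0.16), Itgax (-0.98 ± 0.12), Itgb7 (-0.94 ± 0.21), Itgb2 (-0.84 ± 0.10) and Itgb5 (-0.77 ± 0.14). None of the 6 was called when the FL libraries, whose spread is larger, shared the fit. Differences of Itgav (0.31 ± 0.12), Itgb8 (0.64 ± 0.27) and Itga4 (0.33 ± 0.11) between these doses missed the threshold. Itga4 was called higher by DESeq2 (0.35, adjusted p = 0.0182), with median-of-ratios scaling (adjusted p = 0.0466) and with the 2 groups fitted alone (adjusted p = 0.00512). Itgb8 was called higher without the filter on low counts (0.62, adjusted p = 4.69e-06), and Itgav with the 2 groups fitted alone (0.30, adjusted p = 0.0484). Between 1 and 0.5 µM edgeR called 0 members and 0 of 16152 genes. There, 2 members and 870 genes had an unadjusted p under 0.05, and DESeq2 called 0 members and 8 genes.

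Markers of several cell types moved with these members. At 1 µM 9 of 9 monocyte and macrophage markers fell, with sums of 3991 to 5214 CPM against 27760 to 33720 CPM in DMSO, and 10 of 10 neutrophil markers fell, to sums of 7.02 to 14.3 CPM against 357 to 588 CPM in DMSO, with Elane at 0 at 1 µM. All 6 markers of mature dendritic cells rose, with sums of 21320 to 24040 CPM at 1 µM against 5873 to 7200 CPM in DMSO. Of 7 cDC2 markers 6 fell and 1 rose, with sums of 597.7 to 712.5 CPM at 1 µM against 1235 to 1600 CPM in DMSO. Of 9 cDC1 markers tested, 3 rose and 3 fell. The cDC1 sums were 2102 to 2267 CPM at 1 µM against 1202 to 1338 CPM in DMSO. The part of these shifts in the levels of the integrin genes was not tested. Mitochondrial genes held 8.04% of counts in 1 µM replicate 1, against 3.96% and 4.27% in the other 1 µM libraries.

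**Figure D2:**
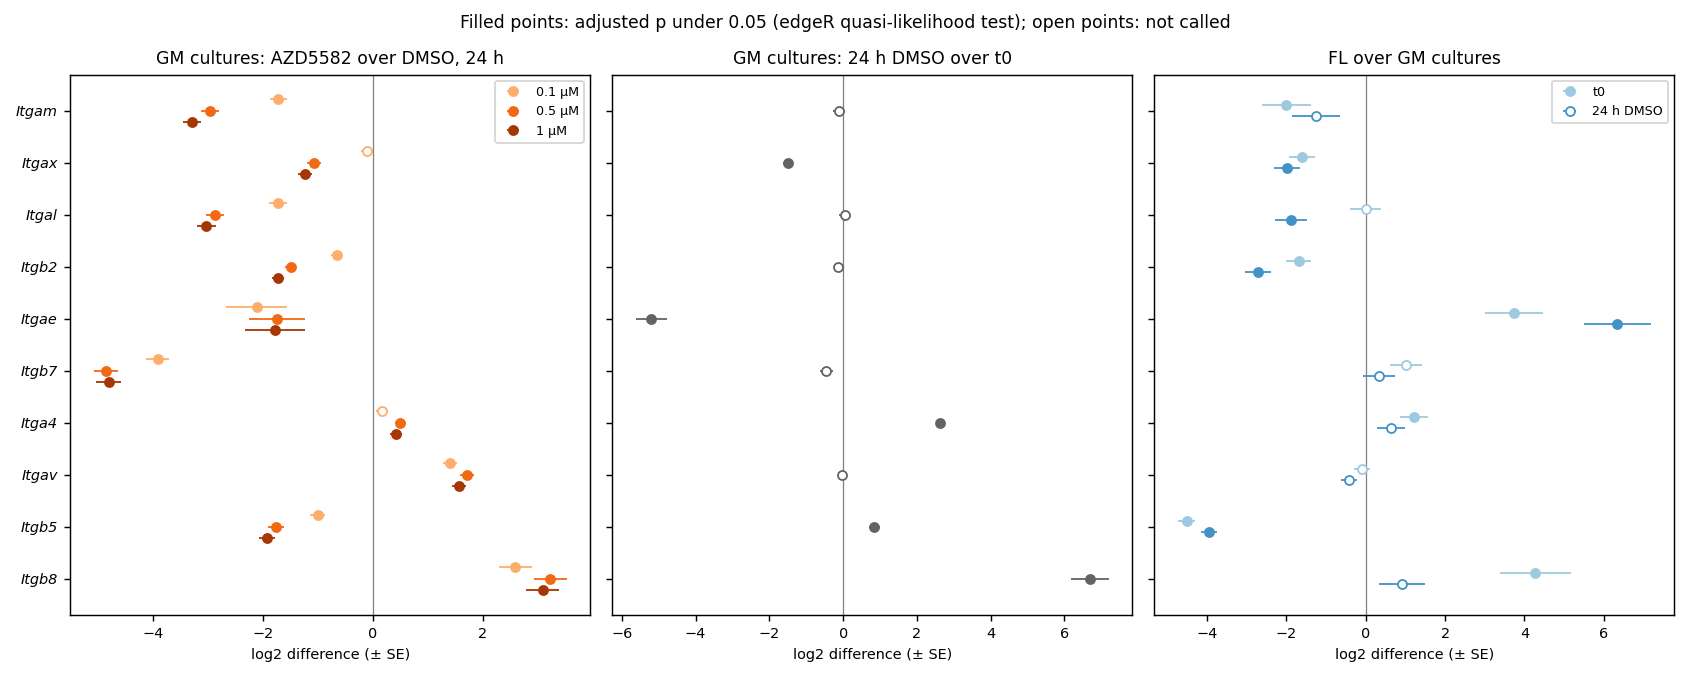
Log2 difference ± SE of each member, from left to right for AZD5582 over DMSO in GM cultures, 24 h in DMSO over t0 in GM cultures, and FL over GM cultures; filled points have an adjusted p under 0.05 and open points do not. In the left panel Itgav and Itgb8 lie right of 0 at all 3 doses, and Itgb7 lies farthest left.

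In FL cultures, alpha4, beta5 and beta8 messenger RNA stood higher after 24 h in DMSO than it did at t0, and alphaX stood lower. Of the 9 members other than Itgae 3 rose and 1 fell, where 10.1% of 15961 genes were called (4.96% higher, 5.18% lower). Itga4 rose 4.19-fold (log2 2.07 ± 0.54, adjusted p = 0.0465), Itgb5 2.7-fold (1.43 ± 0.26, adjusted p = 0.0191) and Itgb8 10.2-fold (3.35 ± 0.84, adjusted p = 0.0424), and Itgax fell 3.67-fold (-1.88 ± 0.47, adjusted p = 0.0425). Markers of cDC1 summed to 990.5 to 1710 CPM in DMSO against 2748 to 6228 CPM at t0 (3 of 10 called lower, 1 higher), and mature dendritic cell markers to 6920 to 21180 CPM against 3739 to 4568 CPM (3 of 6 called higher), and their part was not tested. Itgae stood 6.09-fold lower (-2.61 ± 0.93), again a description. Within cultures 91, 94 and 95 its log2 difference was -5.82, -1.73 and -1.17. Itgal (-1.83 ± 0.56), Itgb2 (-1.17 ± 0.46) and Itgb7 (-1.11 ± 0.56) were lower in 3 of 3 cultures and missed the threshold, and Itgam (0.65 ± 0.89) was higher in 2 of 3. DESeq2 did call Itgal lower (-1.81, adjusted p = 0.00905). The 4 calls by edgeR varied with the libraries used: none was made with any 1 of the t0 libraries left out. Itgax was not called without DMSO culture 94 or 95 either, nor Itga4 without DMSO culture 95. Without DMSO culture 91, Itga4 (1.204) and Itgb8 (1.76) were not called, and the estimate for Itgb8 was smaller by more than 1 log2 unit.

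With 0.05 µM AZD5582, alphav was the only member called in FL cultures. Itgav was 3.36-fold higher than in DMSO (log2 1.75 ± 0.28, adjusted p = 0.0222), where 2.9% of 15961 genes were called (1.62% higher, 1.28% lower), and was higher in each culture (1.95, 1.32 and 1.83 in cultures 91, 94 and 95). The call was lost without DMSO culture 94 (adjusted p = 0.0729), DMSO culture 95 (0.104) or AZD5582 culture 95 (0.0959), and with the 2 groups fitted alone (0.0812). Itgb8 was higher in 3 of 3 cultures (0.57, 1.75 and 2.28) but missed the threshold (1.06 ± 0.77, adjusted p = 0.530). Itgae (-2.52 ± 0.93), Itgb7 (-1.77 ± 0.56), Itgax (-1.60 ± 0.47), Itgal (-1.38 ± 0.56), Itgam (-1.24 ± 0.90) and Itgb2 (-1.04 ± 0.45) were lower in 3 of 3 cultures and also missed it, with adjusted p from 0.119 to 0.530. Of these, DESeq2 called Itgax (adjusted p = 0.0156), Itgb7 (0.0212) and Itgae (0.0302) lower. Itga4 (-0.03 ± 0.52) and Itgb5 (-0.48 ± 0.25) went different ways in different cultures. Mature dendritic cell markers summed to 15300 to 30330 CPM in AZD5582 against 6920 to 21180 CPM in DMSO (0 of 6 called). Neutrophil markers summed to 168 to 3511 CPM against 1987 to 9632 CPM (0 of 10 called). Monocyte and macrophage markers summed to 338 to 750 CPM against 907.5 to 1507 CPM (2 of 9 lower, 1 higher). Markers of cDC1 summed to 1655 to 3836 CPM against 990.5 to 1710 CPM (3 of 10 lower), and 2 of 7 cDC2 markers were lower. Their part was not tested.

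Culture 91 stood apart in these groups. Its DMSO library had mature dendritic cell markers at a sum of 21180 CPM, against 6920 and 8601 CPM in cultures 94 and 95. With culture 91 left out of all FL groups, a choice made after the data were seen, 7 members were called with AZD5582 and 2283 genes in place of 463. Itgav (1.66) and Itgb8 (2.12) were then higher, and Itgae (-2.48), Itgax (-1.76), Itgb7 (-1.55), Itgal (-1.32) and Itgb2 (-1.002) lower. Without the DMSO library of culture 91 alone, Itgb8 (2.7, adjusted p = 0.0182) and Itgax (-1.961, adjusted p = 0.00584) were called beside Itgav. Without culture 91, Itgal (-1.13) was called in 24 h in DMSO against t0 in addition to the 4 above, with 1708 genes called in place of 1619. Itgae stood at -1.42 there, as a description. With the culture number as a block the FL calls were those of the unblocked fit for every member, while 3107 genes were called after 24 h in DMSO in place of 1619, and 1098 with AZD5582 in place of 463. The doses used in FL and GM cultures differ, so their responses are given side by side and not compared.

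**Figure D3:**
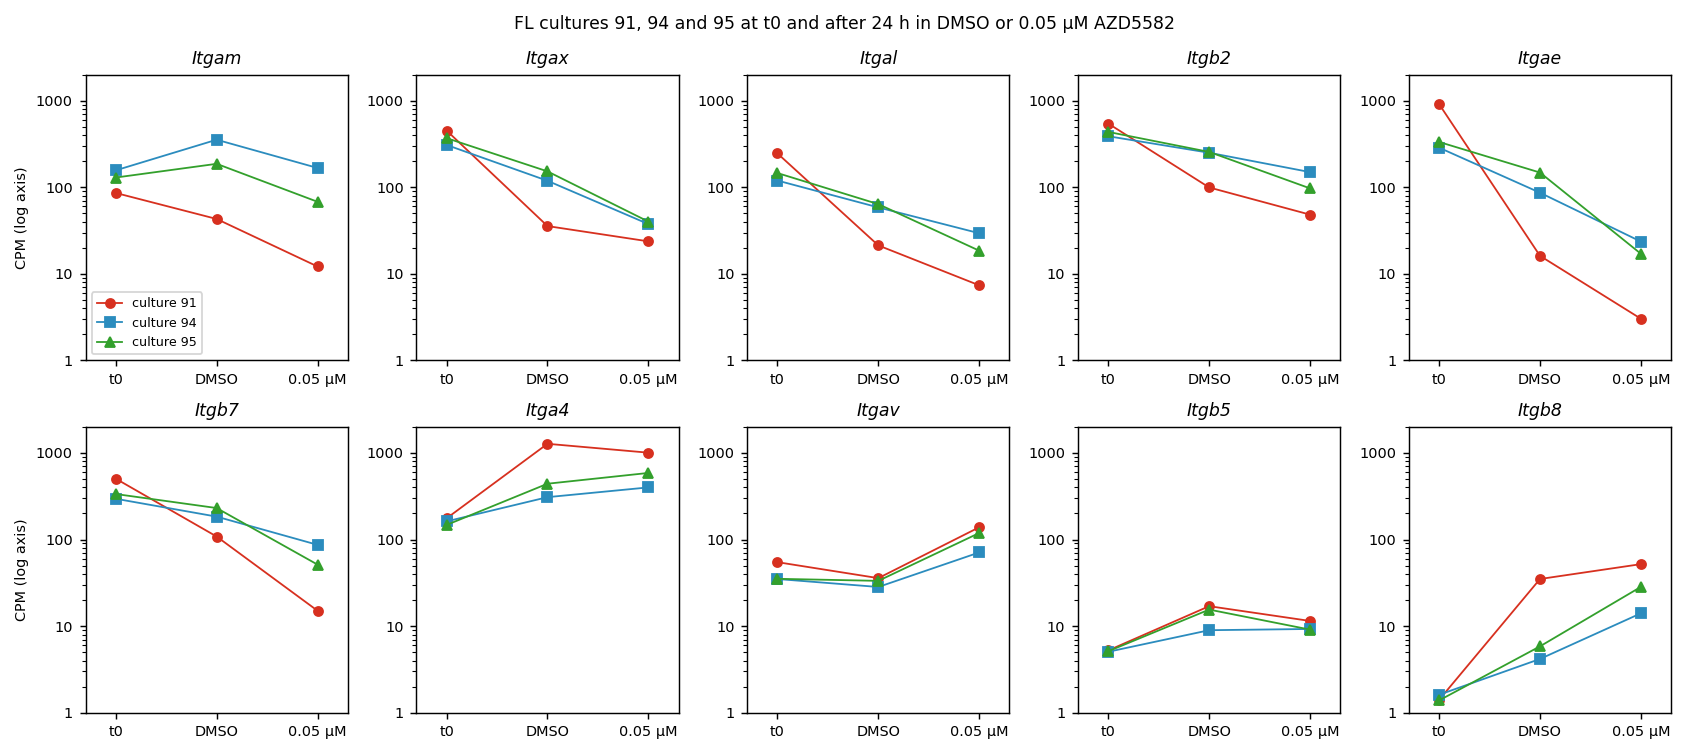
Level of each member (CPM, log axis) in FL cultures 91, 94 and 95 at t0 and after 24 h in DMSO or 0.05 µM AZD5582; each line joins the libraries of 1 culture. DMSO and AZD5582 are parallel 24 h treatments, not successive times. Itgae, Itgax, Itgal and Itgb2 are lower in DMSO than at t0 and lower in AZD5582 than in DMSO in all 3 cultures. Itgav is higher in AZD5582 than in DMSO in each.

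FL and GM cultures differed in their integrin genes before any treatment. The culture types differ in FLT3L, in the day of culture and in the cultures themselves, which cannot be told apart. At t0, 3 members (Itgae included) were higher and 4 lower in FL than in GM cultures, where 40.9% of 17262 genes were called (23.4% higher, 17.5% lower). Itgae was 13.3-fold higher in FL cultures (log2 3.74 ± 0.73). Its t0 levels enter the loss known when the members were listed, so that difference is a description. Itgb8 was 19.3-fold higher (4.27 ± 0.90, resting on 268 reads in FL and 14 in GM libraries) and Itga4 2.32-fold higher (1.22 ± 0.35). Itgb5 was 22.9-fold lower in FL cultures (-4.52 ± 0.22, adjusted p = 1.26e-11), and Itgb2 (-1.69 ± 0.31), Itgam (-2.01 ± 0.62) and Itgax (-1.61 ± 0.32) were lower as well. Itgam was not called without FL culture 91 at t0 (-1.80, adjusted p = 0.0592). Itgal (0.00 ± 0.38) and Itgav (-0.09 ± 0.20) had 95% intervals of -0.76 to 0.75 and -0.49 to 0.31, and Itgb7 (1.007 ± 0.40) missed the threshold at an adjusted p of 0.0520, although its libraries did not overlap between the culture types and DESeq2 called it higher (1.012, adjusted p = 0.0301). Monocyte and macrophage markers, 9 of 9 of them lower in FL cultures, and cDC1 markers, 8 of 10 higher, moved with these members, and their part was not tested.

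After 24 h in DMSO, 1 member (Itgae) was higher and 4 were lower in FL than in GM cultures (41.4% of genes called, 20% higher and 21.4% lower). Itgae was 80.9-fold higher in FL cultures (6.34 ± 0.84). That difference includes the loss of Itgae known when the members were listed and rests on 14 to 117 reads per GM library, so it is a description. Itgb5 (-3.95 ± 0.21), Itgb2 (-2.72 ± 0.32), Itgax (-1.99 ± 0.33) and Itgal (-1.88 ± 0.40) were lower. Itgb8 (0.91 ± 0.58) and Itga4 (0.64 ± 0.35) missed the threshold, and both estimates turned negative without culture 91 (-0.66 and -0.21, neither called). Without DMSO culture 94, Itga4 was called higher (0.98, adjusted p = 0.0179). Itgam (-1.26 ± 0.61) was called only without DMSO culture 94 (-2.02, adjusted p = 0.0197) or without culture 91 in all FL groups (-0.79, adjusted p = 0.0457). Itgav (-0.43 ± 0.205, adjusted p = 0.0994) and Itgb7 (0.33 ± 0.40) missed the threshold. Itgav libraries did not overlap between the culture types, and without culture 91 Itgav was called lower (-0.51, adjusted p = 0.0239).

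Whether 24 h in DMSO changed a member differently in the 2 culture types was tested as a difference of the changes, FL minus GM. None of the 9 members other than Itgae passed by edgeR (4.84% of 17262 genes called, 0.881% higher and 3.96% lower), with 5 members (Itgae included) and 3126 genes at an unadjusted p under 0.05, and DESeq2 called 2, Itgal and Itgb8. The estimates were -1.88 ± 0.55 for Itgal (adjusted p = 0.0529) and -3.36 ± 1.10 for Itgb8 (adjusted p = 0.0860). With the replicate number as a block, both passed: Itgal at -2.12 (adjusted p = 0.0317) and Itgb8 at -3.92 (adjusted p = 0.0172). Without culture 91, Itgal (-1.17), Itgb8 (-4.96) and Itga4 (-1.36) were called, and 2596 genes in place of 835. For Itgae, again as a description, the estimate was 2.60 ± 0.97 over all cultures and 3.77 without culture 91.

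Compared per length, as CPM per kb of exon, the order of the subunits differed between groups. In GM cultures at t0 the means ran from Itgb2 (482), Itgax (239), Itgam (99.1), Itgb7 (68.0), Itgb5 (33.1) and Itgal (26) to Itgae (8.34), Itga4 (4.98), Itgav (4.12) and Itgb8 (0.00663), and no 2 neighbours overlapped. After 24 h in DMSO the order was Itgb2 (437), Itgam (92.6), Itgax (84.8), Itgb5 (60.2), Itgb7 (50.0), Itga4 (30.9), Itgal (26.9), Itgav (4.08), Itgb8 (0.723) and Itgae (0.216), with Itgae already last and Itga4 already above Itgal. Overlaps there were between Itgam and Itgax, Itgb5 and Itgb7, and Itga4 and Itgal. At 1 µM AZD5582 the order was Itgb2 (122), Itga4 (38.6), Itgax (33.3), Itgb5 (14.7), Itgav (11.2), Itgam (8.73), Itgb8 (5.68), Itgal (3.04), Itgb7 (1.65) and Itgae (0.0587). There, Itga4 and Itgax overlapped, as did Itgb5 and Itgav. FL cultures at t0 ran Itgb2 (149), Itgb7 (137), Itgae (111), Itgax (78.2), Itgal (25.9), Itgam (24.7), Itga4 (11.6), Itgav (3.88), Itgb5 (1.45) and Itgb8 (0.133). The first 4 of these overlapped with their neighbours, and so did Itgal and Itgam.

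Ratios of 2 subunits per kb show which pairs differed in proportion between groups. Itga4 over Itgb7 was 23.6 ± 2.05 at 1 µM AZD5582, against 0.646 ± 0.241 in DMSO, in GM cultures (mean ± SD, n = 3 each). Itgav over Itgb5 was 0.781 ± 0.213 at 1 µM, against 0.0683 ± 0.0103 in DMSO. Itgav over Itgb8 was 2.04 ± 0.464 at 1 µM, against 6.07 ± 1.56 in DMSO. Itgb8 over Itgb5, the 2 beta partners of alphav followed here, was 0.388 ± 0.0757 at 1 µM, against 0.0120 ± 0.00435 in DMSO. Itgam over Itgb2 was 0.0717 ± 0.00802 at 1 µM and 0.212 ± 0.00414 in DMSO, while Itgax over Itgb2 was 0.273 ± 0.0184 at 1 µM and 0.194 ± 0.0180 in DMSO. Itgae over Itgb7 was 0.760 ± 0.288 in FL cultures and 0.123 ± 0.0377 in GM cultures at t0. In each of these pairs of groups the ratios of the libraries did not overlap. A ratio within a library shows unequal change of 2 genes, not which of them changed.

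**Figure D4:**
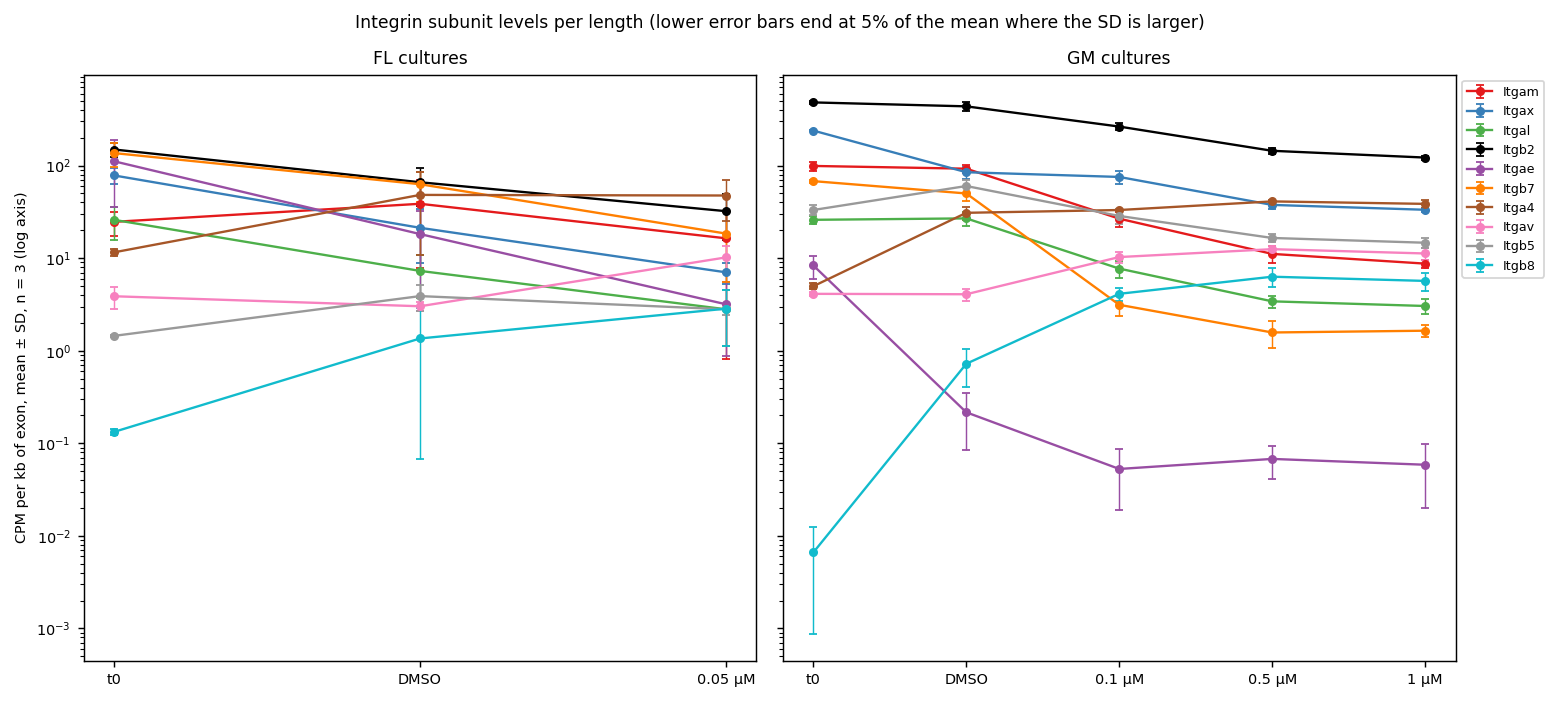
Mean level of each member per kb of exon (CPM per kb, log axis, ± SD, n = 3) across FL groups (left) and GM groups (right); lower bars end at 5% of the mean where the SD is larger. In GM cultures Itgae and Itgb8 exchange the lowest place between t0 and DMSO, and the mean of Itgb7 lies below that of Itgb8 at all 3 doses.

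Of 17 other integrin subunit genes 15 could be tested in GM cultures, and at 1 µM AZD5582 3 were higher, 5 lower and 7 not called, beside 55.1% of all genes called. Lower were Itga1 (-1.79 ± 0.13), a collagen receptor chain, Itga6 (-1.43 ± 0.14), a laminin receptor chain, and Itga5 (-0.55 ± 0.11), the fibronectin receptor chain. The 3 higher genes averaged under 10 CPM in both groups and so were not named at this dose. At 0.5 µM Itga3 averaged 10.25 CPM against 2.74 CPM in DMSO and rose by 2.02 ± 0.295 (adjusted p = 1.80e-05). Itgb1, the beta1 partner of alpha4, averaged 785 ± 83.4 CPM at 1 µM and 820 ± 51.7 CPM in DMSO (SD, n = 3 each). It had risen with Itga4 over 24 h, by 0.76 ± 0.10 in DMSO relative to t0 (adjusted p = 3.58e-06). The median log2 difference at 1 µM was -0.22 over the 15, beside -1.76 over the 10 members and -0.01 over all genes. After 24 h in DMSO, 5 of the 15 were higher and 3 lower than at t0 (47.5% of all genes called). None of 13 tested was called in FL cultures with 0.05 µM AZD5582, where 2.9% of all genes were called.

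Ligands moved in both directions. Of 12 ligand genes tested (15 listed), 7 were higher and 5 lower at 1 µM AZD5582 than in DMSO (55.1% of all genes called), with a median log2 difference of 0.77. After 24 h in DMSO, 7 were higher and 3 lower than at t0 (47.5% of all genes called). Icam1, the ligand of LFA-1 and Mac-1, rose by 0.98 ± 0.11 at 1 µM, while Fn1 (fibronectin, -5.12 ± 0.34), Thbs1 (thrombospondin, -3.95 ± 0.22) and the complement gene C3 (-1.88 ± 0.16) fell. Vcam1, the ligand of VLA-4, rose by 1.39 ± 0.20 at 0.1 µM and by 3.69 ± 0.24 over 24 h in DMSO. Cdh1, the E-cadherin gene whose product alphaE binds, averaged 19.2 ± 2.44 CPM in GM cultures in DMSO and 385 ± 76.8 CPM at t0 and fell by 4.34 ± 0.16 (adjusted p = 1.17e-12), beside the lower level of Itgae. In FL cultures with 0.05 µM AZD5582, 1 of 12 ligand genes was called (2.9% of all genes called). Icam5, another ligand of LFA-1, averaged 7.90 CPM in AZD5582 and 1.05 CPM in DMSO and rose by 2.90 ± 0.39 (adjusted p = 0.0126). Icam5 lies under the 10 CPM of the rule for named genes and was picked after its values were seen. Madcam1 was too low to be tested.

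Among 31 tested genes for integrin activators and adaptors (33 listed), 9 were higher and 16 lower at 1 µM (55.1% of all genes called), with a median log2 difference of -0.22. After 24 h in DMSO, 14 were higher and 8 lower than at t0 (47.5% of all genes called). Fermt3, the kindlin needed to activate beta2 integrins, fell by 1.99 ± 0.12, the parvins Parvb and Parvg fell by 2.09 ± 0.12 and 1.67 ± 0.10, and the endocytic adaptor Dab2 fell by 2.84 ± 0.15. Cytip, a cytohesin binding protein that restrains LFA-1 adhesion, rose by 1.70 ± 0.13, and the kinase gene Src by 1.38 ± 0.11. In FL cultures with 0.05 µM AZD5582, 1 of 32 was called (2.9% of all genes called), Dab2, which fell by 2.44 ± 0.49 (adjusted p = 0.0391).

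Genes of the TGF-beta pathway, which the product of Itgav and Itgb8 feeds, also moved in both directions. Of 27 tested (28 listed), 10 were higher and 14 lower at 1 µM AZD5582 in GM cultures (55.1% of all genes called), with a median log2 difference of -0.31. Over 24 h in DMSO, 11 were higher and 8 lower than at t0 (47.5% of all genes called). Tgfb2 averaged 25.6 ± 4.57 CPM at 1 µM and 5.85 ± 1.03 CPM in DMSO and rose by 2.25 ± 0.15 (adjusted p = 8.24e-10). Pmepa1, a TGF-beta target and feedback inhibitor, averaged 29.6 ± 2.34 CPM at 1 µM and 4.42 ± 1.20 CPM in DMSO and rose by 2.87 ± 0.15. Tgfb1, another ligand gene, fell by 0.57 ± 0.11, and the receptor gene Tgfbr2 averaged 29.3 ± 1.45 CPM at 1 µM and 119 ± 6.78 CPM in DMSO, a fall of 1.92 ± 0.08. Ski, a repressor of the pathway, fell by 1.26 ± 0.08. Of genes whose products hold latent TGF-beta at the cell surface, Lrrc32 fell by 1.62 ± 0.20 and Nrros by 0.26 ± 0.10. Tgfb1, Lrrc32 and Nrros fall outside the rule for named genes and were picked after their values were seen. In FL cultures with 0.05 µM AZD5582, 1 of 26 was called (2.9% of all genes called). Ltbp3, which binds latent TGF-beta in the matrix, rose by 1.59 ± 0.30 (adjusted p = 0.0353).

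Some genes followed Itgae or Itgb8 across the 24 libraries, as a description over libraries that share culture type, day and treatment. Over the 9535 genes that averaged 10 CPM or more in some group, the Pearson correlation of log2(CPM + 1) with Itgae was highest for Sept3 (0.987), Wdr86 (0.980), Ppm1m (0.977), Plekhg5 (0.969) and Ap1s3 (0.967). Sept3 averaged 636 CPM in FL and 38.3 CPM in GM cultures at t0 and 1.53 CPM in GM cultures in DMSO. Nearest to Itgb8 were Appl1 (0.989), Ptpn14 (0.987), Tnfaip3 (0.987), Ghitm (0.986) and Il23r (0.985). Tnfaip3, the NF-kB feedback gene for A20, averaged 78.0 CPM in FL and 35.7 CPM in GM cultures at t0 and 212 CPM in GM cultures in DMSO.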

How the data were processed

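Gene counts were deposited per library by the authors; per the submitters' processing notes the tools included STAR 2.7.3a, HTSeq 0.12.4 and DESeq2 1.30.1, with the build GRCm39. Per the labels' protocols, RNA was taken with RNeasy kits, libraries were TruSeq Stranded mRNA and sequencing was on a NovaSeq6000; for the counting, the strand setting was not stated and no annotation release was named. Lines that name no gene held 11.0 to 16.4% of counts and were left out. No column was left unused and no 2 libraries were identical.

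From the deposited counts, CPM and log2 differences were computed here with edgeR 4.0.16 (R 4.3.3): filterByExpr, TMM scaling, the robust quasi-likelihood test and Benjamini-Hochberg adjustment over all genes tested, with a threshold of 0.05. GM comparisons used the 15 GM libraries (16152 genes), FL comparisons the 9 FL libraries (15961 genes), and FL against GM all 24 (17262 genes). These fits had biological coefficients of variation of 0.146, 0.39 and 0.272. Tested on simulated data, 81% and 97% of 2-fold and 4-fold changes were recovered in GM, 2% and 54% in FL and 60% and 89% across both. The simulated libraries were drawn independently and fitted without a block, so the FL shares do not cover paired cultures. Alternatives were other scalings, no low-count filter, a replicate block, other sets of libraries, DESeq2 1.42.0 and leaving out each library.

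In FL cultures samples of the same number deviated together (correlations of 0.135 to 0.689, 9 of 9 over 0.1), and the numbers are those of the cultures in the labels, so they pair the samples. Lengths for CPM per kb are exon unions of GENCODE M21 on GRCm38, used for lengths only. All members were described; from each gene list the text names up to 4 genes with the smallest p at a mean of at least 10 CPM and up to 2 in the opposite direction. All 178 list symbols had an identifier; 1 marker gene first listed is not reported here and was left out of the sums and counts. The members and lists were chosen with earlier results of these data known.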

Additional observations from a re-analysis of the deposited data

How the results depend on the processing

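No result changed direction with a call under any alternative. In GM cultures the genes called by AZD5582 at 0.1 µM were 3874 with all 24 libraries in one fit in place of 6503, and at 0.5 µM over 0.1 µM 85 genes and 0 members in place of 1849 and 6; at 1 over 0.5 µM, where 0 genes were called, 77 were without the low-count filter and 8 by DESeq2. FL calls after 24 h in DMSO (1619 genes, 4 members) became 582 genes and 1 member with the groups fitted alone, 5307 and 8 with all libraries, 3503 genes by DESeq2, and 1 member without the filter. With AZD5582 (463 genes, 1 member) they became 31 and 0 with the groups alone, 2721 and 6 with all libraries, 1526 and 4 by DESeq2, and 2283 and 7 without culture 91. FL over GM in DMSO gave 3866 genes with the groups alone in place of 7147. The difference of changes (835 genes, 0 members) gave 503 genes without the filter, 261 with the groups alone, 2596 genes and 4 members without culture 91, 1 member by library totals and 2 by DESeq2. Counts of members over 24 h include Itgae, whose own change is a description. The causes were not tested.

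With the replicate number as a block, FL calls were 3107 genes after 24 h in DMSO and 1098 with AZD5582, and the difference of changes 1685 genes and 2 members; it changed no other call of a member in FL cultures. In GM cultures 7 of 30 pairs of the same number correlated above 0.1 (0.0102 to 0.226) and all 15 libraries correlated best with their own number, a hint from the data only; there the block added Itgb7 after 24 h in DMSO (-0.45, adjusted p = 0.0314) and Itga4 at 0.5 over 0.1 µM (0.33, adjusted p = 0.0423).

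Leaving out each library gave 1062 to 1737 genes at 0.5 over 0.1 µM, 0 to 1 at 1 over 0.5 µM, 13 to 1454 genes and 0 to 3 members for FL DMSO over t0, 17 to 1983 and 0 to 3 for FL AZD5582, and 486 to 1869 and 0 to 3 for the difference of changes. In the simulation, which held no pairing by culture and no block, FL changes near 2-fold were seldom recovered.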
